A study of Mus musculus with 70 samples.

Results

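Matrix metalloproteinases are secreted or membrane-bound proteases that cut collagens and other proteins of the extracellular matrix, and the tissue inhibitors of metalloproteinases (TIMPs) bind to their active site and block them. The genes of this system followed here, Mmp2, Mmp3, Mmp8, Mmp9, Mmp10, Mmp13, Mmp14, Timp1, Timp2 and Timp3, were measured in mouse renal carcinoma cells that had been passaged through mice by 3 routes. They were found on the arrays by gene symbol or by the transcript accession of the probe, after control spots were left out, and made up 10 of the 21391 gene symbols named by the probes. Each gene had 1 probe except Timp2, which had 2, so that 11 probes were read. The members were picked by name and not by a measured value.

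The parental cells (P0) were GFP-RENCA, a line made from a mouse renal adenocarcinoma and transduced with a lentivirus for GFP, and all passaged cells carried the same GFP. They were placed under the kidney capsule or into the tail vein of 6-week-old female BALB/c mice, taken out of the grown tumors, kept in culture, and implanted again, for 6 passages. KPT cells came from the primary kidney tumors, K-LM cells from lung metastases of mice with kidney tumors, and T-LM cells from lung metastases after tail vein injection. The 65 RNA samples were 2 of P0, then 5, 2, 2, 3, 5 and 5 of KPT, 5, 2, 3, 4, 6 and 4 of T-LM, and 1, 1, 5, 3, 4 and 3 of K-LM at P1 to P6. The title of 1 of the T-LM P1 samples, LOT1, names no route, and it was placed by another label. All lines derived from 1 parental culture, and the labels do not say how many separate mice stand behind the samples of a group, so the p-values measure the spread between these samples.

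The proteases fall into classes by what they cut. The collagenases (Mmp8, Mmp13) open the triple helix of fibrillar collagen, the gelatinases (Mmp2, Mmp9) degrade the unwound collagen and the type IV collagen of basement membranes, and the stromelysins (Mmp3, Mmp10) cut a broad range of matrix proteins and activate other proenzymes. Mmp14 is anchored in the cell membrane, where it cleaves collagen and, together with Timp2, activates pro-Mmp2. In carcinomas these genes are transcribed by tumor cells and by fibroblasts, macrophages and neutrophils around them, and an array of total RNA cannot tell fewer cells of a type from less RNA per cell.

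Of the members, Mmp13, Mmp3, Mmp10 and Mmp8 lie in 1 cluster on mouse chromosome 9, in this order along the chromosome, with Mmp12, Mmp1b, Mmp1a and a noncoding gene between them. The promoters of the first 3 hold a copy of the AP-1 motif TGANTCA, which reads the same on both strands and is the site through which growth factors and phorbol esters are known to switch on these genes. The 29 bases around it are shown because these are the members whose promoter window holds the motif. The sequences are from RefSeq on GRCm38.p6, plus strand, with the motif in capitals.
Mmp13, chr9:7272468-7272496: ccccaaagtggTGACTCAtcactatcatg
Mmp3, chr9:7445765-7445793: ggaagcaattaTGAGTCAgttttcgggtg
Mmp10, chr9:7502268-7502296: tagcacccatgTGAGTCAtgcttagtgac
The motif began 35, 46 and 63 bases before the start of Mmp13, Mmp3 and Mmp10. The windows searched ran from 250 bases before to 50 bases after each start, 8 of the 10 members had one, and 2565 of all 32851 promoters (7.81%) held the motif. The windows of the other 5 members with a promoter did not hold these letters, and a match is not a measured binding site.

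Levels are given as log2 of the probe's processed signal minus the 75th percentile of its array, so 0 is the 75th percentile of the 12219 probes that were well above background on every array, and 1 unit is a 2-fold difference. Levels of different probes are not comparable with each other. Mmp10, Timp1 and Timp2 were well above background in all 65 samples, Mmp2 in 63, Timp3 in 58, Mmp13 in 47, Mmp3 in 46, Mmp8 in 31, Mmp14 in 21 and Mmp9 in 18. From 25.3% to 55.3% of all probes were well above background per array. The 3 K-LM P6 samples were hybridised on a later slide together with repeats of both P0 and 3 KPT P6 samples, which tie that slide to the others. Pax8, Krt8 and Krt18, genes of renal and simple epithelium, were well above background in all 65 samples, whereas the kidney factor Pax2 was so in 0 of 65 and Cdh1 in 7. Some markers of other cells were present in part of the samples: Pdgfra of fibroblasts was well above background in 19 of 65, Lum in 19, the macrophage gene Adgre1 in 18, the pan-leukocyte gene Ptprc in 14 and the surfactant gene Sftpc in 7. Others of the same lists were so in most or all samples, among them Cd68, Csf1r, Itgam and Cd14 in 65, Dcn in 64 and Lyz2 in 63. Pdgfrb was so in 48, Thy1 in 46 and the airway gene Scgb1a1 in 44, and Dpt, Col15a1 and Nkx2-1 in 0.

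From P0 to P6, 8 of the 10 genes rose in the tail vein route, 2 in the kidney-to-lung route and 1 in the kidney tumor route. The comparison asks which of the genes differ between the parental cells and the cells of the last passage. Called here means an adjusted p of 0.01 or less from limma with Benjamini-Hochberg adjustment over all probes tested. Of all probes, 3.32% were called higher at P6 in KPT, 4.15% in K-LM and 5.89% in T-LM. Mmp2 was the member called in KPT, Mmp3 and Mmp13 those in K-LM, and in T-LM all were called but Timp1 and Timp2. The median fitted change of the 10 members was 0.33 in KPT, 1.48 in K-LM and 3.07 in T-LM on the log2 scale, beside -0.02, 0.01 and 0.01 over all probes. With the members that were not well above background in one group set to their lower bound, or to no change where that bound was under 1, it was 0.10, 0.82 and 1.86. The 3 comparisons share the P0 samples, and the T-LM count was 3 without P0 replicate 2 and 5 without P0 replicate 1 or T-LM P6 replicate 1, 2 or 3. The P0 levels below average both arrays of each P0 sample, while the KPT and T-LM fits used the first array of each.

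**Figure D1:**
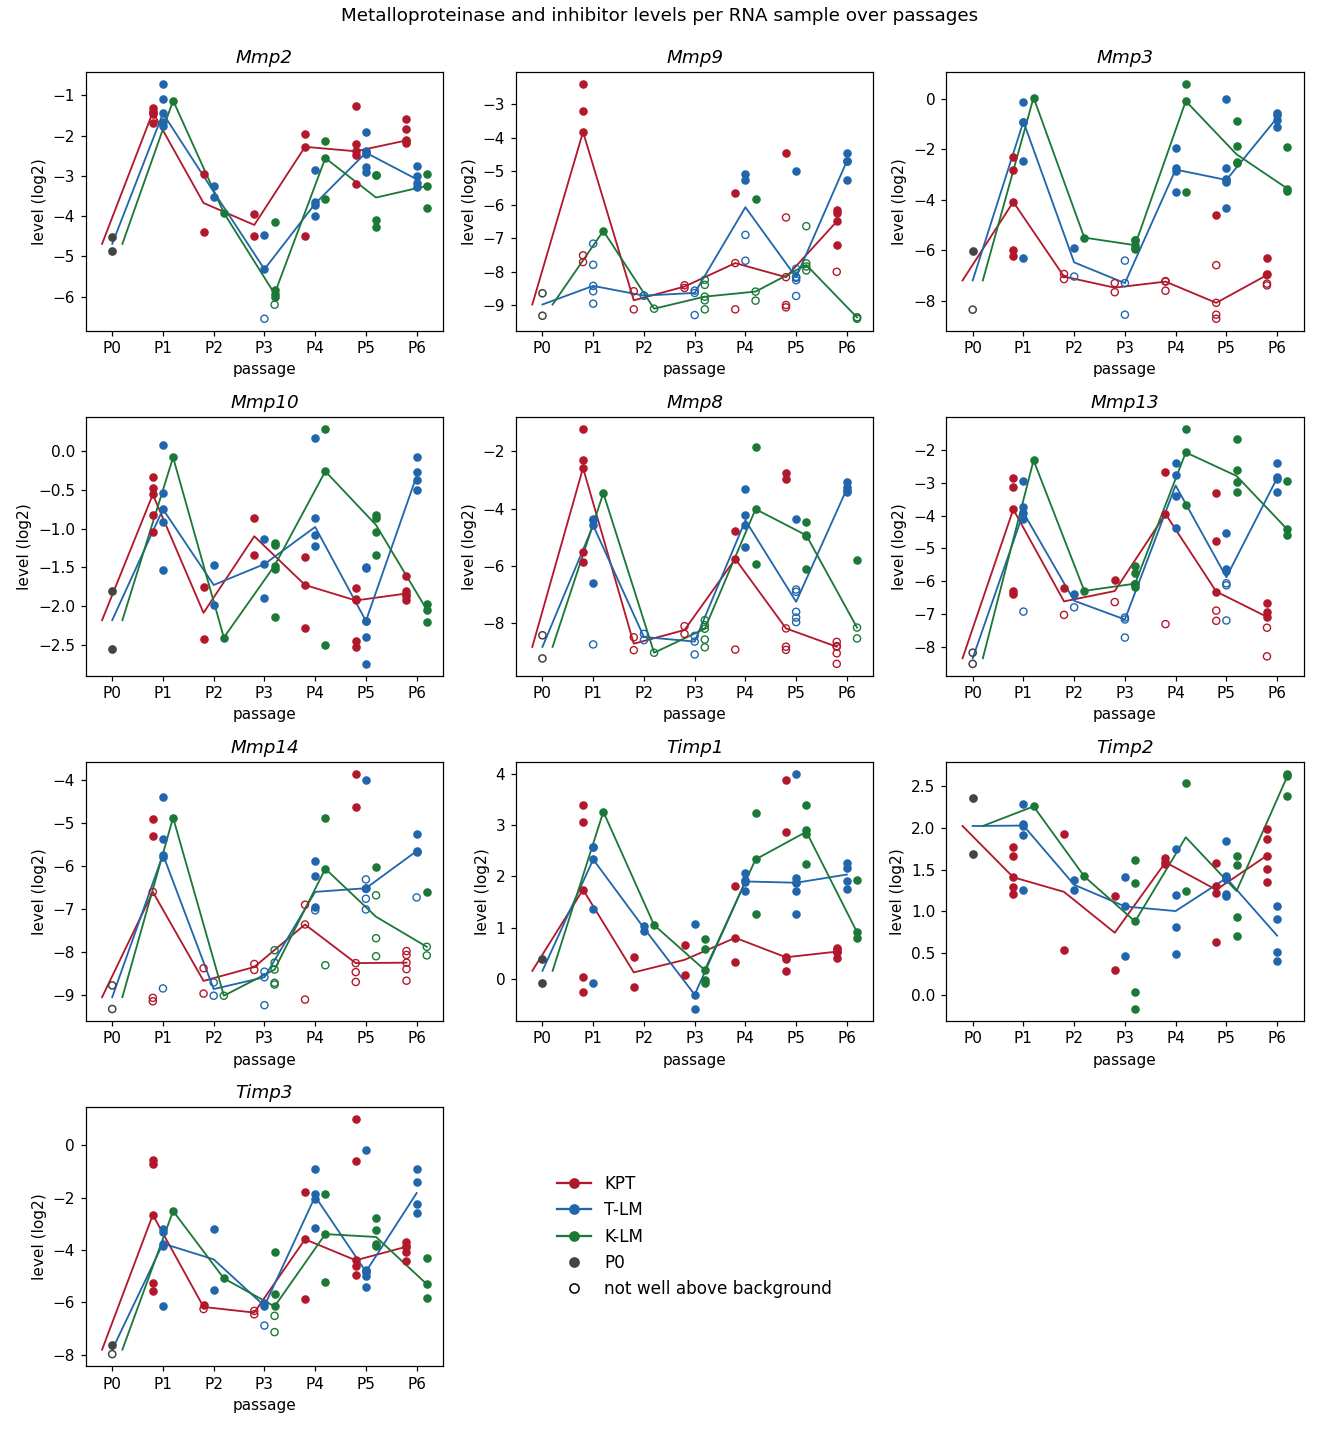
Level of each member (log2 signal over the array's 75th percentile) against passage, 1 point per RNA sample, filled where the probe was well above background and open where it was not; lines join the group medians of each route. At P6 the 4 T-LM points of Mmp3, Mmp8, Mmp9, Mmp10 and Timp3 lie above every KPT and K-LM point.

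Mmp3, stromelysin 1, which activates the proenzymes of other metalloproteinases, had the widest swing between routes. In P0 its level was -6.04 in replicate 1 and -8.35 in replicate 2, the latter not well above background. In the T-LM P6 samples it was -1.14, -0.66, -0.56 and -0.86, and in K-LM P6 -3.56, -3.66 and -1.90. All 7 lay above both P0 samples. KPT P6 stayed between -7.39 and -6.29, within the P0 range, and 3 of the 5 samples were not well above background. The change from P0 to P6 was 6.24 ± 0.84 (SE) in T-LM (adjusted p = 3.67e-05, limma), 4.16 ± 0.81 in K-LM (adjusted p = 0.000985) and 0.02 ± 0.81 in KPT (adjusted p = 0.995). The 2 P0 samples differ by more than 2 units, and the K-LM call was lost without P0 replicate 2 or without K-LM P6 replicate 3, with changes down to 2.92 and adjusted p up to 0.0797.

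Over the passages Mmp3 was not monotonic. In the T-LM route it stood at -2.49 to -0.15 in 4 of the 5 P1 samples and at -6.30 in LOT1, was between -8.55 and -5.92 at P2 and P3, and from P4 on never below -4.34. The K-LM samples read 0.04 at P1, -5.97 to -5.50 at P2 and P3, -3.71, -0.10 and 0.59 at P4, and -2.54 to -0.87 at P5. In KPT the high samples were P1 replicates 4, 5 and 3 at -2.33, -2.82 and -4.09 and P5 replicate 1 at -4.60. All other KPT samples were at -6.00 or lower. From P3 to P6 in T-LM, where none of the 3 P3 samples was well above background, Mmp3 was at least 59.9-fold higher at P6 (adjusted p = 7.95e-06). The K-LM change over the same passages was 2.75 ± 0.75 and missed the threshold (adjusted p = 0.015).

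Mmp10, stromelysin 2, moved less and was measured in every sample. P0 read -1.81 and -2.56, T-LM P6 -0.50, -0.08, -0.37 and -0.27, KPT P6 -1.93 to -1.61 and K-LM P6 -2.05, -1.97 and -2.21. Of the P6 groups, T-LM alone did not overlap P0. It rose by 1.92 ± 0.38 from P0 to P6 in T-LM (adjusted p = 0.0016). The change was 0.42 ± 0.29 in KPT (adjusted p = 0.507) and 0.09 ± 0.47 in K-LM (adjusted p = 0.95). Without P0 replicate 2 the T-LM change was not called (adjusted p = 0.0553). The highest single values were 0.29 in K-LM P4 replicate 5 and 0.17 in T-LM P4 replicate 2, and the T-LM P5 samples, from -2.75 to -1.50, overlapped P0.

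Mmp13, collagenase 3, the main rodent enzyme for fibrillar collagen, was not well above background in either P0 sample, at -8.17 and -8.51. It read -2.89, -2.40, -2.83 and -3.28 in T-LM P6 and -4.58, -4.42 and -2.96 in K-LM P6. Every one of these 7 samples was well above background. In KPT P6 it lay between -8.28 and -6.67, with 2 of 5 samples not well above background. Mmp13 was at least 10.2-fold higher at P6 than at P0 in T-LM (adjusted p = 8.86e-07) and at least 7.21-fold higher in K-LM (adjusted p = 2.87e-05), and both calls held whichever sample was left out. The KPT difference was not called (adjusted p = 0.718).

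The collagenase was also high in single groups on the way. T-LM P4 ran from -4.38 to -2.40, K-LM P4 from -3.67 to -1.36, and K-LM P5 from -3.29 to -1.66. T-LM P5 dropped back to -7.19 to -4.53, with 3 of 6 samples not well above background. In KPT, P4 replicates 1 and 3 (-3.95 and -2.67) and P5 replicates 1 and 2 (-3.31 and -4.76) stood above the other samples of their passages, which ran from -7.30 to -6.31.

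Mmp8, neutrophil collagenase, was in P0 at -9.24 and -8.43 and in all 5 KPT P6 samples at -9.43 to -8.66, none of them well above background. The 4 T-LM P6 samples read -3.41, -3.06, -3.26 and -3.36, a range of under 1 unit. K-LM P6 read -8.16 and -8.54, neither well above background, and -5.79 in replicate 3. Mmp8 was at least 7.57-fold higher in T-LM P6 than in P0 (adjusted p = 6.41e-05) and at least 11.5-fold higher than in T-LM P3 (adjusted p = 8.15e-06). The K-LM change from P0 was not called (adjusted p = 0.162). Of 8 neutrophil markers on the arrays, 4 could be tested from P0 to P6 in T-LM, and 2 of them rose with Mmp8. S100a8 was higher by 4.00 ± 0.67 (adjusted p = 0.000342; not called without P0 replicate 2), and Mpo, at -6.48 to -5.77 in T-LM P6, was at least 1.03-fold higher (adjusted p = 0.00195; not called without either P0 sample). The granule gene S100a9 was well above background in 1 of the 4 T-LM P6 samples and Ltf and Ngp in 0 of 4. The part of neutrophils in the Mmp8 result was not tested.

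Mmp2, gelatinase A, was the member that changed in all 3 routes over the passages. It read -4.86 and -4.52 in P0, -1.83, -2.14, -2.12, -1.58 and -2.19 in KPT P6, -3.00, -3.17, -2.75 and -3.28 in T-LM P6, and -3.79, -3.25 and -2.96 in K-LM P6. All 12 P6 samples lay above both P0 samples. The rise from P0 to P6 was 2.78 ± 0.58 in KPT (adjusted p = 0.00548) and 1.80 ± 0.41 in T-LM (adjusted p = 0.0055), and the K-LM change of 1.2 ± 0.47 was not called (adjusted p = 0.122). The KPT call was lost in 6 of 7 fits with 1 sample left out (adjusted p up to 0.102), each of them but that without KPT P6 replicate 4, and the T-LM call in 5 of 6 (adjusted p up to 0.101), all but that without T-LM P6 replicate 4. The change itself stayed between 2.59 and 2.98 in KPT and between 1.60 and 2.00 in T-LM.

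Over the passages Mmp2 was highest at P1 and low at P3. At P1 all 11 samples of the 3 routes read between -1.77 and -0.71. At P3 they read -4.50 and -3.94 in KPT, -6.55, -5.32 and -4.48 in T-LM, and -6.20 to -4.14 in K-LM, where replicate 3 was the high one and the other 4 were at -5.84 or lower. From P3 to P6 the gene rose by 2.40 ± 0.36 in T-LM (adjusted p = 0.000171) and by 1.98 ± 0.44 in K-LM (adjusted p = 0.00462), and the KPT change was 2.15 ± 0.58 (adjusted p = 0.0376). The K-LM call was lost in 4 of 8 fits with 1 sample left out, those without K-LM P3 replicate 4 or 5 or K-LM P6 replicate 2 or 3 (adjusted p up to 0.0261).

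Mmp9, gelatinase B, an enzyme of macrophages and neutrophils as well as of carcinoma cells, was not well above background in P0 (-9.31 and -8.64), nor in any K-LM P6 sample (-9.40, -9.36 and -9.36). T-LM P6 read -4.71, -4.46, -4.69 and -5.26, and KPT P6 -6.26, -7.20, -8.00, -6.17 and -6.50, of which the -8.00 was not well above background. It was at least 2.67-fold higher in T-LM P6 than in P0 (adjusted p = 0.00445) and at least 4.06-fold higher than in T-LM P3 (adjusted p = 0.000568). The first of these calls was lost in 5 of 6 fits with 1 sample left out, all but that without T-LM P6 replicate 4 (adjusted p up to 0.0783), and the second in none. The highest levels of all were in KPT P1, where replicates 4, 5 and 3 read -2.39, -3.20 and -3.83 and replicates 1 and 2, neither well above background, -7.51 and -7.71.

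Mmp14, the membrane-type collagenase that activates pro-Mmp2, was well above background in 21 samples. P0 read -9.33 and -8.78 and KPT P6 -8.67 to -7.98, none of the 7 well above background. T-LM P6 read -5.64, -5.24, -5.66 and, not well above background, -6.73. K-LM P6 replicate 3 was well above background at -6.60, and the other two, at -7.88 and -8.08, were not. Mmp14 was at least 1.30-fold higher in T-LM P6 than in P0 (adjusted p = 0.00672) and at least 1.98-fold higher than in T-LM P3 (adjusted p = 0.000964). The call against P0 was lost in 5 of 6 fits with 1 sample left out, again all but that without T-LM P6 replicate 4 (adjusted p up to 0.0953). The brightest samples were KPT P5 replicate 1 at -3.85, T-LM P5 replicate 1 at -3.99 and T-LM P1 replicate 2 at -4.39.

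Timp1, a secreted inhibitor of most metalloproteinases, read 0.39 and -0.08 in P0, 0.40 to 0.60 in KPT P6, 2.16, 2.26, 1.91 and 1.76 in T-LM P6, and 0.91, 0.79 and 1.93 in K-LM P6. The lung metastasis samples lay above P0, but the changes of 1.69 ± 0.53 in T-LM (adjusted p = 0.0403) and 1.16 ± 0.39 in K-LM (adjusted p = 0.0608) were not called, nor was that of 0.24 ± 0.77 in KPT (adjusted p = 0.918). From P3 to P6 it rose by 1.96 ± 0.46 in T-LM (adjusted p = 0.00746), a call lost in 6 of 7 fits with 1 sample left out, all but that without T-LM P3 replicate 5 (adjusted p up to 0.0618). K-LM P5, at 2.24 to 3.39, was higher than K-LM P6 in each sample.

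Timp3, the inhibitor that is bound to the matrix and also blocks ADAM proteases, read -7.63 and, not well above background, -7.97 in P0. The 4 T-LM P6 samples read -1.42, -0.89, -2.23 and -2.60, the 5 KPT P6 samples -4.41 to -3.68, and the K-LM P6 samples -5.30, -5.84 and -4.30. Each of the 12 was above P0 and well above background. On the first arrays neither P0 sample was well above background, and Timp3 was at least 21.2-fold higher in T-LM P6 (adjusted p = 0.000461). In KPT the measured difference was at least 4.68-fold but was not called (adjusted p = 0.0875), and the K-LM change was 2.61 ± 0.68 (adjusted p = 0.0128). The KPT P4 and P5 samples, which enter the same fit, ran from -5.85 to 1.00. Without the 4 of them in which Pdgfra or Adgre1 was well above background, the KPT difference was called (adjusted p = 4.61e-08). The T-LM call was lost without P0 replicate 2 (adjusted p = 0.0133).

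Timp2, which inhibits secreted proteases and at the cell surface takes part in the activation of pro-Mmp2, went another way from the other members. By its brighter probe it read 2.36 and 1.69 in P0, 1.35 to 1.99 in KPT P6, 0.41, 0.51, 0.91 and 1.06 in T-LM P6, and 2.62, 2.65 and 2.39 in K-LM P6. The T-LM P6 samples were below and the K-LM P6 samples above both P0 samples, yet neither change was called: -1.27 ± 0.32 in T-LM (adjusted p = 0.0125) and 0.48 ± 0.44 in K-LM (adjusted p = 0.623). From P3 to P6 it rose by 1.71 ± 0.41 in K-LM (adjusted p = 0.00772), a call lost in 5 of 8 fits with 1 sample left out, those without K-LM P3 replicate 4 or 5 or any of the K-LM P6 samples (adjusted p up to 0.0319).

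The second Timp2 probe did not show the lower level in T-LM P6, where its 4 samples, at -0.67 to -0.12, overlapped P0, at -0.57 and -0.78. Its K-LM P6 samples, at -0.11, -0.06 and 0.19, lay above P0 and above T-LM P6, as those of the brighter probe did, but these differences were not called. Its change from P0 to P6 was 0.21 ± 0.26 in T-LM (adjusted p = 0.735) and 0.74 ± 0.27 in K-LM (adjusted p = 0.0905), and from P3 to P6 in K-LM it was 0.45 ± 0.25 (adjusted p = 0.211). At P6 the second probe differed by -0.08 ± 0.12 between KPT and T-LM (adjusted p = 0.72) and by 0.52 ± 0.16 between T-LM and K-LM (adjusted p = 0.0263). In these comparisons the brighter probe gave -0.90 ± 0.20 (adjusted p = 0.00316) and 1.75 ± 0.27 (adjusted p = 0.000186). It had no value on 2 arrays, KPT P5 replicate 1 and K-LM P4 replicate 1, where it was flagged as an outlier spot.

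**Figure D2:**
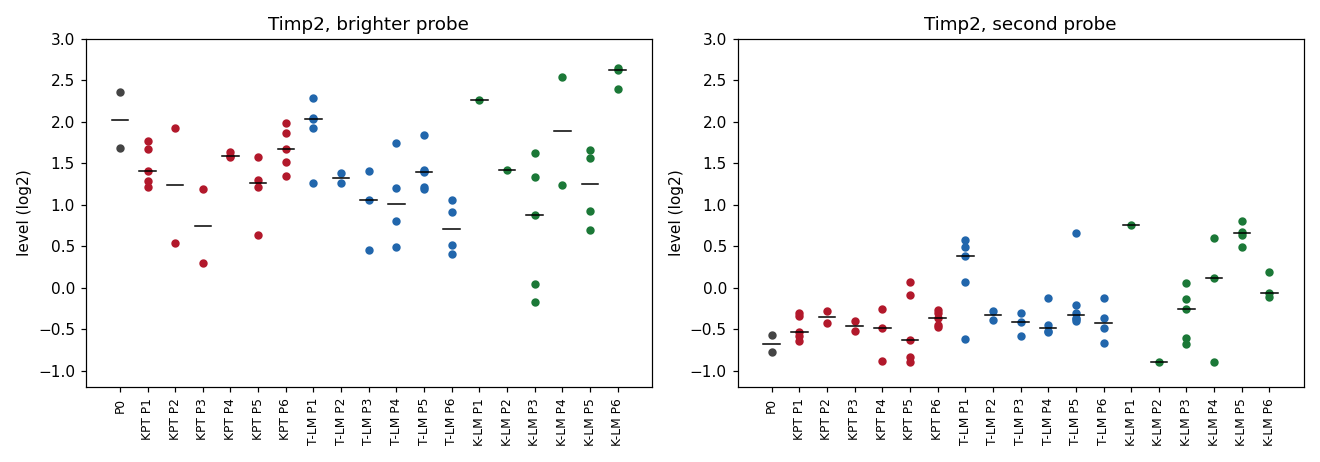
Level (log2) of the 2 Timp2 probes in P0 and the 18 route and passage groups, 1 point per RNA sample and a bar at the group median. The brighter probe is lowest among the P6 groups in T-LM and highest in K-LM, while on the second probe T-LM P6 and KPT P6 overlap.

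**Figure D3:**
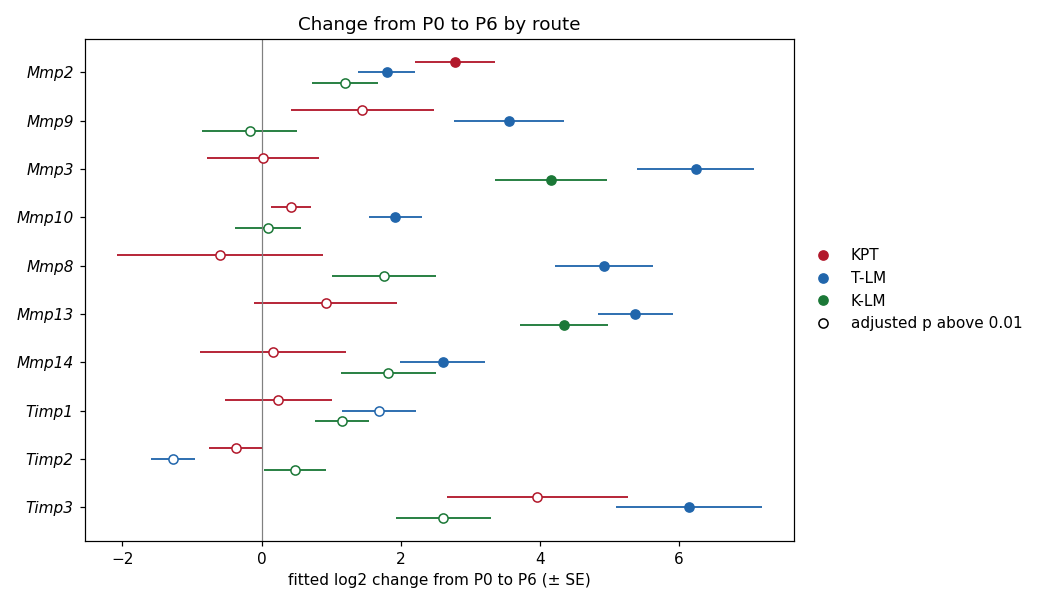
Fitted log2 change from P0 to P6 with its SE for the 10 members in each route, filled where the adjusted p was 0.01 or less. Mmp3 and Mmp13 are filled in both lung routes and Mmp2 in KPT and T-LM. For Mmp8, Mmp9, Mmp13 and Mmp14, which were not well above background in P0, the size depends on background signal and the text gives lower bounds. The same holds for Timp3 in KPT and T-LM, whose fits used the first P0 arrays.

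The same genes were tested from P3 to P6 and over the whole course. From P3 to P6, 8 of 10 members rose in T-LM (Mmp2, Mmp3, Mmp8, Mmp9, Mmp13, Mmp14, Timp1 and Timp3), where 5.77% of all probes were called higher. In K-LM 2 rose (Mmp2 and Timp2), where 4.13% were. In KPT limma called 0 of 10 from P3 to P6, in either direction, where 0.763% of all probes were called, and 3 of the 10 had an unadjusted p under 0.05. A test of any change over P0 and P2 to P6 called 1 member in KPT (Mmp2, adjusted p = 0.00967), 9 in T-LM (all but Timp2) and 6 in K-LM (Mmp2, Mmp3, Mmp8, Mmp13, Timp1 and Timp3), beside 9.61%, 20.4% and 24.0% of all probes. The KPT call was lost in 14 of 19 fits with 1 sample left out.

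Scaling to the 75th percentile of all probes moved the median change of all probes by -0.29 to 0.21 units and left every member's direction in these calls as it was. It shifted the balance of all calls, so that the share of calls that were higher at P6 went from 81.2% to 62.8% in T-LM from P0, from 81.8% to 59.8% in T-LM from P3, from 70.6% to 51.9% in K-LM from P3, and from 85.6% to 71.4% in KPT from P3.

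At P6 the routes were set against each other, to ask which genes mark 1 way of passaging. Because P0 is shared, the same test compares the change since P0. T-LM differed from KPT in all 10 members. Of these, 8 were higher in T-LM, where 7.18% of all probes were higher, and 2, Mmp2 and Timp2, were lower, where 4.06% were. The largest differences were those of Mmp3, at 6.16 ± 0.44 (adjusted p = 1.69e-08), and of Mmp8, at least 14.6-fold (adjusted p = 1.95e-08). Mmp13 differed by 4.39 ± 0.39, Timp3 by 2.22 ± 0.31, Mmp9 by 1.94 ± 0.38, Mmp10 by 1.52 ± 0.17 and Timp1 by 1.43 ± 0.19, and Mmp14 was at least 2.50-fold higher. Mmp3 was well above background in 2 of 5 KPT P6 samples and Mmp13 in 3 of 5. Their differences from KPT P6, here and below, depend in part on background signal. Mmp2 differed by -0.98 ± 0.18 (adjusted p = 0.000722). Apart from that of Timp2, which was lost without KPT P6 replicate 2 or T-LM P6 replicate 1 or 2 (adjusted p up to 0.0168), these calls held in every fit with 1 sample left out.

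K-LM P6 was set apart from KPT P6 by 6 members. Mmp3 was higher by 3.91 ± 0.51 (adjusted p = 2.75e-05), Mmp13 by 3.22 ± 0.45 (adjusted p = 6.12e-05) and Timp1 by 0.83 ± 0.22 (adjusted p = 0.00906), beside 6.49% of all probes. Mmp8 was also called higher (adjusted p = 0.00298), but it was well above background in 1 of the 3 K-LM P6 samples and in 0 of 5 KPT P6 samples, and no size can be given. The difference in Timp1 was lost in 6 of 8 fits with 1 sample left out, those without K-LM P6 replicate 3 or any KPT P6 sample (adjusted p up to 0.0608). Mmp2 differed by -1.57 ± 0.21 (adjusted p = 3.83e-05) and Mmp9 was at least 1.53-fold lower (adjusted p = 0.00161), beside 8.80% of all probes.

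Between the lung routes, 4 members were lower in K-LM P6 than in T-LM P6, where 7.57% of all probes were. Mmp9 was at least 6.31-fold lower (adjusted p = 2.82e-05), Timp3 differed by -3.44 ± 0.42 (adjusted p = 2.09e-05) and Mmp10 by -1.81 ± 0.24 (adjusted p = 3.53e-05). Mmp8 was called lower (adjusted p = 0.000207), but with 1 of 3 K-LM P6 samples well above background its size depends on background signal. Timp2 was higher in K-LM, where 4.22% of all probes were, by the brighter probe alone. Mmp13 (-1.17 ± 0.53, adjusted p = 0.126) and Mmp3 (-2.25 ± 0.60, adjusted p = 0.0116) were not called. In 1 model of all routes and passages the members called at P6 were 4 between KPT and T-LM, 2 between KPT and K-LM and 3 between T-LM and K-LM, while the calls over all probes went from 2482 to 674, from 3374 to 947 and from 2604 to 798. With all probes in the percentile, the share of calls that were higher in T-LM than in KPT went from 63.9% to 47.5%, and that higher in K-LM than in T-LM from 35.8% to 54.7%.

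A passage earlier the picture was narrower. At P5 Mmp3 was higher than in KPT by 4.50 ± 0.78 in T-LM (adjusted p = 0.00223) and by 5.35 ± 0.87 in K-LM (adjusted p = 0.000903), and both calls held with any 1 sample left out. Mmp3 was well above background in 1 of the 5 KPT P5 samples, so these sizes depend on background signal. It was the single member called between KPT and T-LM, where 2.18% of all probes were higher in T-LM. K-LM was also higher than KPT in Mmp13, by 3.06 ± 0.70 (adjusted p = 0.00819), and in Mmp10, by 1.11 ± 0.26 (adjusted p = 0.00872), where 2.79% of all probes were higher. It was higher than T-LM in Mmp13 by 3.24 ± 0.67 (adjusted p = 0.00819), where 1.66% were. Mmp13 was well above background in 3 of 5 KPT P5 and 3 of 6 T-LM P5 samples, so its sizes depend in part on background signal. The call of Mmp10 was lost in each of 9 fits with 1 sample left out. Those of Mmp13 were lost in 7 of 9 and 9 of 10, the exceptions being the fits without KPT P5 replicate 1 or 2 and without T-LM P5 replicate 1. With the RNA index (the mean level of long mRNAs minus that of ribosomal protein mRNAs) as a covariate, K-LM differed from KPT and from T-LM in 0 members each, while the calls over all probes went from 1452 to 165 and from 671 to 31. With all probes in the percentile, the share of calls higher in T-LM than in KPT went from 41.1% to 67.3% and that higher in K-LM than in KPT from 37.9% to 59.8%.

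The first passage was set against the last, since several members were high in both. In KPT, Mmp8 was at least 11-fold lower at P6 than at P1 (adjusted p = 0.00286) and Mmp10 fell by 1.16 ± 0.22 (adjusted p = 0.00073), where 7.13% of all probes were lower. The Mmp8 samples of P1 read -5.51, -5.87, -1.21, -2.58 and -2.29, all above those of P6, and without replicate 4 of P1 the adjusted p was 0.0101. In T-LM, Mmp9 was at least 5.14-fold higher at P6 than at P1 (adjusted p = 0.000349), where 3.69% of all probes were higher. Mmp2 fell by 1.71 ± 0.32 (adjusted p = 0.000622) and Timp2, by its brighter probe, by 1.19 ± 0.25 (adjusted p = 0.00237), where 5.38% were lower. The second Timp2 probe changed by -0.59 ± 0.23 (adjusted p = 0.0775), and the call of the brighter one was lost without T-LM P6 replicate 1 or 2 (adjusted p up to 0.0129). With the RNA index as a covariate, 1 member was called in KPT and 0 in T-LM, while the calls over all probes went from 2577 to 1197 and from 2132 to 1257. With all probes in the percentile, the share of calls higher at P6 went from 39.0% to 61.1% in KPT and from 40.7% to 64.2% in T-LM.

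Markers of fibroblasts moved with several members. The paper states that the cultures were kept until no GFP-negative cells were found, and it reports EMT-like expression changes in P6 cells. The markers are RNA levels, and an array of total RNA cannot tell whether they came from other cells or from the tumor cells. Of 9 fibroblast markers, 0 to 1 were well above background in P0, 3 to 5 in KPT P6, 5 to 6 in T-LM P6 and 3 to 6 in K-LM P6, and log2 of their summed signal was -5.55 to -5.45, -1.81 to -1.47, -0.41 to 0.78 and -1.60 to -0.16. Pdgfra was not well above background in P0 or KPT P6, and was so in 3 of 4 T-LM P6 and 1 of 3 K-LM P6 samples. Dpt and Col15a1 were so in 0 of 65. Of 12 macrophage and leukocyte markers, 5 to 6 were well above background in P0, 5 to 6 in KPT P6, 5 to 9 in T-LM P6 and 5 in K-LM P6, and Adgre1 in 2 of the 4 T-LM P6 samples. Of 7 lung epithelium markers, 3 to 5 were so in T-LM P6, Sftpc among them in 4 of 4, beside 0 to 1 in P0, 1 to 2 in KPT P6 and 1 in K-LM P6.

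Single samples showed the same pairing. The summed fibroblast level of T-LM P5 replicate 1 was 2.65 beside -1.13 to -0.42 in the other 5 samples, and that sample held the highest T-LM P5 level of every member but Mmp10. In KPT P5, replicates 1 and 2 had summed levels of 1.15 and 0.27 and 11 and 12 of 12 macrophage markers, against -1.75 to -1.59 and 5 markers in the other 3. These 2 samples were the highest of the group in Mmp3, Mmp8, Mmp9, Mmp13, Mmp14, Timp1 and Timp3 but the lowest in Mmp10. KPT P1 replicates 3, 4 and 5, at -1.12, 0.20 and 0.51, were above replicates 1 and 2, at -3.17 and -2.77. These 3 were also the high ones in Mmp3, Mmp8, Mmp9, Mmp13, Mmp14, Timp1 and Timp3. In Mmp2 all 5 KPT P1 samples lay close together, from -1.68 to -1.31. The part of other cells in the results, if they were present, was not tested.

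**Figure D4:**
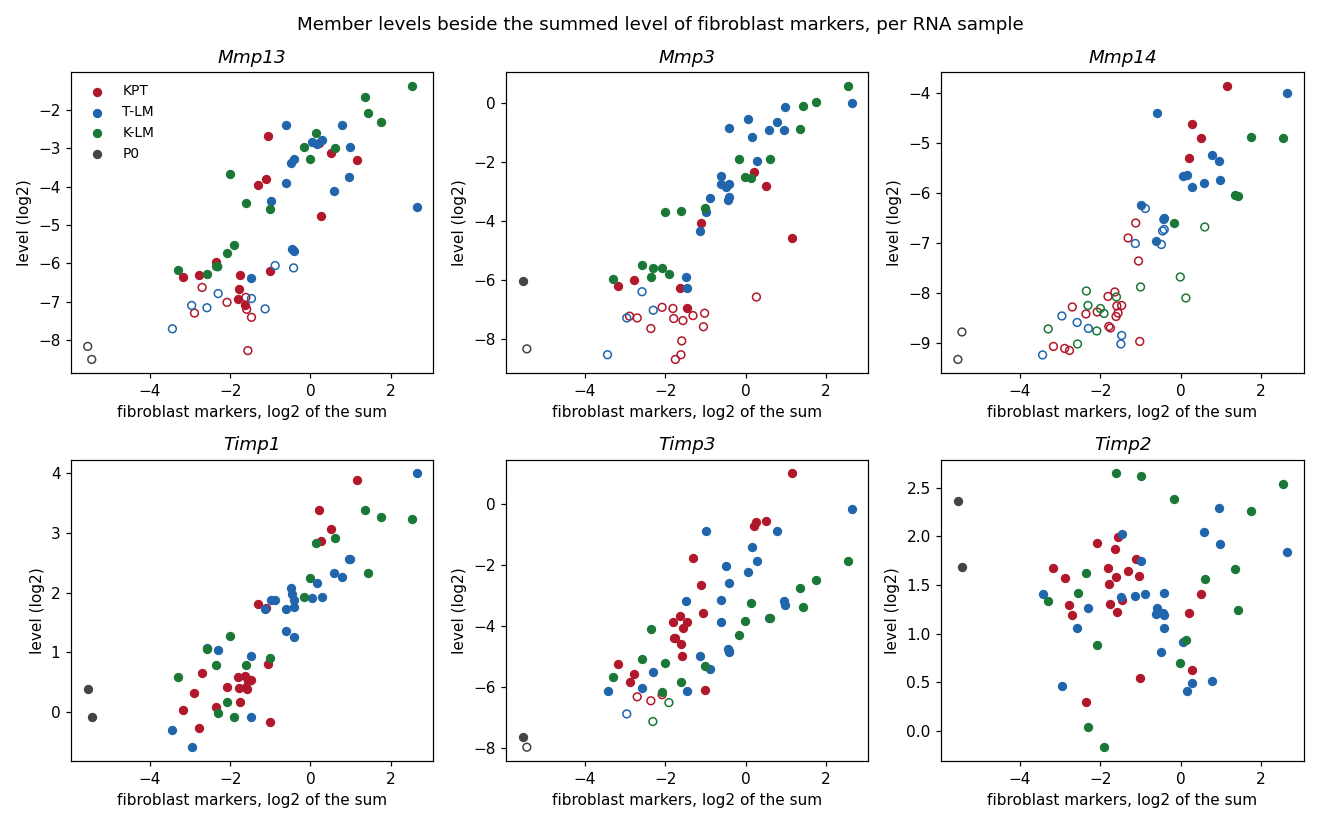
Level (log2) of 6 members against log2 of the summed signal of 9 fibroblast markers, 1 point per RNA sample, colored by route and open where the member's probe was not well above background. Mmp13, Mmp3, Mmp14, Timp1 and Timp3 are higher toward the right, and Timp2 is spread over the whole axis; both axes come from the same arrays and share their scaling.

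Each comparison was therefore also fitted without the RNA samples in which Pdgfra or Adgre1 was well above background, a choice made after the data had been seen. It left 1 of the 4 T-LM P6 samples, replicate 4, 2 of the 3 K-LM P6 samples and all 5 of KPT P6. The rule used Pdgfra and Adgre1 alone. Replicate 4 still had other fibroblast markers and Sftpc well above background. The fit is thus not one without markers of other cells, and their part was not tested by it. From P0 to P6 in T-LM, 3 of the 7 members that could be tested were then called, Mmp3 at 6.18 (adjusted p = 0.00206), Mmp13 (adjusted p = 0.000364) and Timp3 (adjusted p = 0.00108), with a lone P6 sample assumed to vary like the other groups. The calls over all probes went from 1551 to 417 with that sample alone. The changes of Mmp2, at 1.57 beside 1.80 with all samples, and of Mmp10, at 1.96 beside 1.92, kept their size without being called. In K-LM the calls were still those of Mmp3 and Mmp13. At P6 the T-LM group was then replicate 4 alone, and no call against KPT is read from it. At P5, T-LM was then higher than KPT in Mmp3, Mmp14 and Timp1. K-LM P5 was then higher than KPT P5 in Mmp3, Mmp8, Mmp13, Mmp14 and Timp1, and higher than T-LM P5 in Mmp8, Mmp13 and Timp3. The adjusted p of Mmp13 in these comparisons was 6.4e-05 and 0.000498, both lower than with all samples. The calls over all probes at P5 rose as well. Between KPT and T-LM they went from 1048 to 2009. Against K-LM they went from 1452 to 2242 for KPT and from 671 to 853 for T-LM.

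Other genes of the same system were read from lists of known function, from P0 to P6. Over all probes, 3.32% were called higher in KPT, 4.15% in K-LM and 5.89% in T-LM. A gene could pass the background filter through the passaged samples alone. Serpinb2 and Il6 below, for instance, were well above background in 0 of 2 P0 samples. Of the other metalloproteinases, 15 of 16 were on the arrays and 3 to 4 could be tested. Mmp12, the macrophage elastase that lies between Mmp13 and Mmp3, was the 1 of 4 called in T-LM, at least 4.99-fold higher at P6 than at P0 (adjusted p = 0.00113), a call lost without either P0 sample. In KPT 0 of 4 and in K-LM 0 of 3 were called by limma, with 0 and 1 at an unadjusted p under 0.05. Of 10 further inhibitors and binding partners tested, 1 rose in KPT, 3 in K-LM and 2 in T-LM. Itgb3, the integrin subunit whose dimer binds Mmp2 at the cell surface, was at least 5.36-fold higher in KPT, 9.28-fold in K-LM and 8.91-fold in T-LM. Cd44, a docking receptor for Mmp9, rose by 1.69 ± 0.27 in K-LM and by 1.62 ± 0.28 in T-LM, and Lcn2, whose human form binds the human enzyme of Mmp9, by 2.28 ± 0.37 in K-LM. The T-LM call of Cd44 was lost without P0 replicate 1 and that of Lcn2 without P0 replicate 2.

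Of the plasmin system, which activates several proenzymes, 2 of 7 genes tested rose in KPT, 2 of 8 in K-LM and 5 of 8 in T-LM. Plau, urokinase, rose in all 3 routes, by 2.36 ± 0.37 in KPT, 1.41 ± 0.31 in K-LM and 2.91 ± 0.41 in T-LM. Its KPT call was lost without P0 replicate 1, and its K-LM call without P0 replicate 1 or K-LM P6 replicate 1 or 3. Serpinb2, an inhibitor of urokinase, was at least 7.49-fold higher in T-LM and 6.68-fold in K-LM. Of the ADAM and ADAMTS proteases, relatives that shed surface proteins or process matrix, 4 of 13 rose in K-LM and 4 of 12 in T-LM. Adamts2, the procollagen propeptidase, was at least 13-fold higher in T-LM and 23.6-fold in K-LM, Adam8 at least 15.3-fold and 5.84-fold, and Adam19 at least 4.23-fold in T-LM. In T-LM the call of Adamts2 was lost without either P0 sample and that of Adam19 in 5 of 6 fits with 1 sample left out, all but that without T-LM P6 replicate 4. In KPT limma called 0 of 12, with 3 at an unadjusted p under 0.05.

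Among 20 AP-1, ETS and cytokine genes known to induce metalloproteinases, 3 rose in KPT, 4 in K-LM and 5 in T-LM. Il6, an inflammatory cytokine, was at least 31.2-fold higher in T-LM and 6.66-fold in K-LM. Etv5, an ETS factor, rose by 2.64 ± 0.54 in K-LM and by 2.92 ± 0.54 in T-LM, and Fos, an AP-1 subunit, by 2.55 ± 0.59 in T-LM and 2.42 ± 0.50 in KPT. The P0 samples of Fos lay far apart (-4.46 ± 2.17, SD, n = 2), and without P0 replicate 1 its change was 1.02 in T-LM and 0.89 in KPT, and neither was called. The calls of Fos were also lost without any of the T-LM P6 samples, and without KPT P6 replicate 1, 3, 4 or 5. The Etv5 calls were lost without P0 replicate 1 and, in K-LM, without K-LM P6 replicate 3, and the K-LM call of Il6 without either P0 sample or K-LM P6 replicate 3. Of the matrix proteins that the enzymes cut, 1 of 13 rose in KPT, 6 of 13 in K-LM and 9 of 14 in T-LM, with median fitted changes of 1.88, 2.72 and 4.47, or 1.13, 2.30 and 2.98 with genes not well above background in one group at their lower bound. Fn1, fibronectin, was at least 79.4-fold higher in T-LM and 55.9-fold in K-LM. Col1a1, a chain of type I collagen, was at least 53.3-fold higher in T-LM and rose by 6.12 ± 1.15 in K-LM, a call lost without P0 replicate 2. Dcn, decorin, which is also among the fibroblast markers, was at least 63.2-fold higher in T-LM and 15.1-fold in KPT, and rose by 6.29 ± 0.78 in K-LM. These lists hold genes that fibroblasts express, and the marker levels above apply to them as well.

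The pattern of each widely measured member over P0 and the 18 route and passage groups was compared with the other widely measured genes. Widely measured means that the brightest probe was well above background in most of the RNA samples. Genes measured less widely were not compared. The measure was the Pearson correlation of the 19 group means, as a description. Nearest to Mmp3 were Fgf7 (0.952), Vegfc (0.948) and Grem1 (0.942), and nearest to Mmp13 were Cish (0.918), Vegfc (0.91) and Il6 (0.909). Mmp2 was most like Col5a1 (0.863), Adam19 (0.862) and Itga5 (0.859). Mmp10 was most like Rassf1 (0.889), Rmdn2 (0.879) and Fam13b (0.868). Among the inhibitors, the nearest genes were Tmem223 (0.966), Tmeff1 (0.964) and Rgs16 (0.964) for Timp1, Ccl6 (0.947), Cyba (0.941) and Lpl (0.941) for Timp3, and 2310022A10Rik (0.91), Sirpa (0.909) and Nrm (0.899) for Timp2. The group means share arrays, scaling and the marker levels described above.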

How the data were processed

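Total RNA of 65 cell samples was labelled with Cy5 and read on 70 Agilent mouse arrays. Both P0 samples and 3 KPT P6 samples were read again on a later slide, which also holds the K-LM P6 samples, so its slide, scan day and scanner software cannot be told apart. The deposited scanner files hold the processed signal intensity of each spot, background-subtracted by Feature Extraction (11.0.1.1, or 12.0.2.2 for the later slide), and the series table holds log2 values that the authors had normalized between arrays (column medians 6.21 to 6.23). For the array design, a genome build is not given in the sources used here.

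Control spots and outlier flags were left out and spots of a probe averaged. The log2 intensity was scaled to each array's 75th percentile over the 12219 probes well above background on all arrays. A probe entered a fit if it was well above background on 2 or more of its arrays, and was tested with limma 3.58.1 (R 4.3.3) and Benjamini-Hochberg adjustment at 0.01. KPT and T-LM fits held P0 and P2 to P6 of that route, with P1 added for the comparisons with P1, and the P5 fit held all P5 samples. Fits with K-LM P6 took all arrays with a term for the later slide and a random block for repeat arrays of an RNA sample. Where a probe was not well above background on any array of a group, the other group is given as at least N-fold higher, against the lowest signal among probes well above background. Each gene was read from its brightest probe. The members, the gene lists and the rules were chosen with earlier results of these data known. Of each list the 3 called genes with the largest change from P0 to P6 were named. The fits were tested on simulated data. The alternatives were another scaling, normexp on the raw median signal with an offset of 50 and quantile normalization, the series table, other filters, the RNA index from 16 long and 59 ribosomal protein mRNAs, slide or replicate number as a block, other sample sets and leaving out each sample.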

Additional observations from a re-analysis of the deposited data

Results flagged for a closer look

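A sample stood far from its group in 11 of the 90 sets of 4 to 6 samples examined. Chance alone gives about 1 in 20 for a single set. The sets hold the members over the same samples and are not independent, so no excess over chance is read from the count. T-LM P5 replicate 1 was the highest of 6 for Mmp3 (-0.01), Mmp8 (-4.36), Mmp9 (-4.98), Mmp14 (-3.99), Timp1 (4.0), Timp2 (1.84) and Timp3 (-0.18). This is the sample with the highest summed fibroblast marker level of its group (2.65). LOT1 was the lowest of 5 T-LM P1 samples for Mmp13 (-6.92) and Timp3 (-6.14), and its summed fibroblast level was -1.47. K-LM P3 replicate 3 was the highest of 5 for Mmp2 (-4.14), and K-LM P5 replicate 6 the highest of 4 for Mmp9 (-6.64, not well above background).

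The change from P0 to P6 differed between routes in 21 tests, each an adjusted p of 0.01 or less from limma between the P6 groups. The values below are fitted differences. Those of Mmp8, Mmp9 and Mmp14 against a group not well above background depend on background signal and are no measured sizes. The same holds for Mmp8 in K-LM P6, where 1 of 3 samples was well above background. In KPT P6, Mmp3 was well above background in 2 of 5 samples and Mmp13 in 3 of 5. Their differences from KPT thus depend in part on background signal. T-LM minus KPT was -0.98 for Mmp2, 6.16 for Mmp3, 5.43 for Mmp8, 1.94 for Mmp9, 1.52 for Mmp10, 4.39 for Mmp13, 2.28 for Mmp14, 1.43 for Timp1, -0.90 for Timp2 and 2.22 for Timp3. K-LM minus KPT was -1.57 for Mmp2, 3.91 for Mmp3, 2.03 for Mmp8, -2.16 for Mmp9, 3.22 for Mmp13 and 0.83 for Timp1. K-LM minus T-LM was -3.40 for Mmp8, -4.11 for Mmp9, -1.81 for Mmp10, 1.75 for Timp2 and -3.44 for Timp3.

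The single K-LM P1 sample entered no comparison. Its levels were above both P0 samples for Mmp2 (-1.13), Mmp3 (0.04), Mmp8 (-3.46), Mmp9 (-6.78), Mmp10 (-0.08), Mmp13 (-2.32), Mmp14 (-4.87), Timp1 (3.26) and Timp3 (-2.51). The summed fibroblast level of this sample was 1.76, with 7 of 9 markers well above background, beside -5.55 to -5.45 in P0.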

How the results depend on the processing

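No called member reversed its direction under any alternative. The counts of members called, and not the directions, moved. Keeping probes well above background on all arrays left 3 to 5 members to test. Of 3 tested in T-LM, 1 was called from P0 to P6, 0 from P3, 2 with any change and 1 from P1. The reported counts, with all 10 tested, were 8, 8, 9 and 3. Of 3 tested in K-LM, 0, 1 and 1 were called, beside 2, 2 and 6. In KPT from P1 it was 1 of 4, beside 2. Of 5 tested at P5, 0 (KPT to T-LM) and 1 (KPT to K-LM) were called, beside 1 and 3. Of 4 tested at P6, 4, 3 and 2 were called, beside 10, 6 and 5. Calls over all probes fell too, from 1551 to 402 in T-LM from P0 and from 2482 to 1086 between KPT and T-LM at P6. With no filter the counts were 0 in K-LM from P3, 1 from KPT to K-LM at P5 and 0 from T-LM to K-LM at P5. Over all probes the calls in these went from 1310 to 521, from 1452 to 723 and from 671 to 185. The RNA index gave 0 for KPT any change, K-LM from P3, T-LM from P1 and both K-LM comparisons at P5, and 1 for KPT from P1. In the first 2 of these the calls over all probes went from 2016 to 842 and from 1310 to 157. Normexp and the series table each gave 2 from T-LM to K-LM at P5, where the calls over all probes went from 671 to 577 and 574. The slide as a block gave 0 for KPT any change, where they went from 2016 to 2349. In 1 model the counts were 1 for K-LM from P0, 2 for KPT any change, and 4, 2 and 3 at P6. For K-LM from P0 and KPT any change, the calls over all probes went from 1242 to 939 and from 2016 to 2229. With the 2 groups compared alone, KPT gave 2 of 7 members tested from P0 and 2 of 7 from P3, and with the later slide alone 3 of 8 from P0. The calls over all probes rose there from 798 to 1350, from 160 to 831 and from 798 to 1726. K-LM from P3 gave 4 without the slide term and the repeat arrays together, while the calls over all probes went from 1310 to 2858.

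An alternative added after the data were seen left out the samples in which Pdgfra or Adgre1 was well above background. The counts were then 2, 2 and 3 in KPT (from P0, from P3, any change), 0 in K-LM from P3, and 3, 5 and 3 at P5. The T-LM P6 group was then replicate 4 alone, and comparisons with it are not counted here. Leaving out each sample gave, in KPT, 0 to 1 from P0, 0 to 0 from P3, 0 to 1 for any change and 1 to 3 from P1; in T-LM, 3 to 8, 6 to 8, 8 to 9 and 2 to 3; in K-LM, 1 to 2 from P0, 0 to 2 from P3 and 6 to 8 for any change; at P5, 1 to 1, 1 to 2 and 0 to 1; and at P6, 9 to 10, 5 to 6 and 5 to 7. The calls over all probes from P3 to P6 in KPT, 160 as reported, ran from 0 with the RNA index to 981 without the samples with those markers. Without those samples they also went from 798 to 1477 in KPT from P0 and from 2016 to 2419 for KPT any change. In K-LM from P3 they went from 1310 to 771. The cause was not tested.

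The main fits did not pair samples by replicate number. Over the comparisons that share numbers, the correlations of same-numbered deviations ran from -0.38 to 0.77. No comparison with 3 or more shared numbers had all of them above 0.1. So few values per comparison cannot exclude a pairing. The replicate block gave 2 members in KPT from P0, 1 in K-LM from P3 and 2 from T-LM to K-LM at P5. In these the calls over all probes went from 798 to 711, from 1310 to 376 and from 671 to 342. Elsewhere the count of members stayed within 1.5 times of the reported one. The fit of the 2 groups alone could not be made with the slide term for K-LM from P3 and for T-LM to K-LM at P6, and the single K-LM P2 sample could not be left out. The number of arrays limits precision, and fitted differences against groups not well above background are no measured sizes.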
